A study of Homo sapiens with 15 samples.

Results

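The genes examined here encode the proteins of the cytosolic ribosome. Autosomal protein-coding genes in the GENCODE annotation of hg19 were taken when their symbol was RPL or RPS followed by a number, with or without the suffix A, L, L1 or X, and RPLP0, RPLP1, RPLP2 and RPSA were added. The rule gave 80 of 20176 protein-coding genes, on 20 chromosomes. Of these, 40 encode large-subunit proteins, 30 small-subunit proteins and 3 the stalk proteins, and 7 are paralogs with a suffix L or L1.

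The data are ChIP-seq read counts for trimethylated lysine 4 (H3K4me3) and acetylated lysine 27 (H3K27ac) of histone H3 in 3 human breast cancer lines, with 2 biological replicates per line and mark and no treatment. Par is the parental MDA-MB-231 line, a claudin-low breast cancer line. LM2 and BrM2 are sub-populations of it selected in mice for growth in the lung and in the brain. Each is 1 selected population, so these lines were compared and not lung or brain metastases in general. All cells had grown with 10% serum for 3 days before fixation in 1% formaldehyde. Total counts in peaks ran from 3489607 to 9839629 per H3K4me3 library and from 1994996 (BrM2 replicate 2) to 6450028 per H3K27ac library, of which ribosomal protein promoters held 23355 to 73860 and 8120 to 19520. In the peak sets merged over the lines, both marks had peaks at the starts of the mesenchymal genes VIM, ZEB1, AXL, CD44 and SPARC and of 6 of 8 luminal genes (not ESR1 and CLDN4), and none at PTPRC, PECAM1 and ALB. H3K4me3 at SPARC ran from 0.744 to 119 normalized counts (read counts scaled to a common library size) per kb over the 6 libraries, so that this peak was not marked alike in all of them.

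A ribosome is built from ribosomal RNA and one copy of most ribosomal proteins, so cells make these proteins in matched amounts. Their genes are active in every growing cell, and their mRNAs begin with a terminal oligopyrimidine (TOP) tract, a cytosine followed by further pyrimidines, through which cells turn translation of these mRNAs up or down with nutrient supply. H3K4me3 marks the promoters of active genes, and H3K27ac marks active promoters and enhancers. The comparisons asked how stable both marks were at these promoters across Par, LM2 and BrM2.

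The start sequences below show what the genes have in common. They run from 80 bases before the start to 20 bases from the start on, 5′ to 3′ on the coding strand, and were taken from RefSeq promoter windows (GRCh38.p14) and placed in GRCh37 (hg19) by exact match. Capitals mark the pyrimidine run at the start. The first group holds 4 genes with peaks that passed a test between lines, and RPL13A and RPS18, which are often used as reference genes.
RPL31, chr2:101618671-101618770, plus strand: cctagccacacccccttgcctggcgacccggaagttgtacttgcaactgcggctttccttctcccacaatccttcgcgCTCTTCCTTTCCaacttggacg
RPLP0, chr12:120638895-120638994, minus strand: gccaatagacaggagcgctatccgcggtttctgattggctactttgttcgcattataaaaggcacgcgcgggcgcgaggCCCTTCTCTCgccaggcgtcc
RPL10A, chr6:35436098-35436197, plus strand: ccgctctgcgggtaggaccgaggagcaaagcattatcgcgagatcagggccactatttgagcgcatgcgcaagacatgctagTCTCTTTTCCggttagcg
RPL22L1, chr3:170587965-170588064, minus strand: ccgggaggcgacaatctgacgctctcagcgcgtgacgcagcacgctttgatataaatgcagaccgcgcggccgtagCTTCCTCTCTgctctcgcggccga
RPL13A, chr19:49990785-49990884, plus strand: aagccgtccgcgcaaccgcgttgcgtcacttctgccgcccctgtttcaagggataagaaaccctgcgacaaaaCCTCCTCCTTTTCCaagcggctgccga
RPS18, chr6:33239772-33239871, plus strand: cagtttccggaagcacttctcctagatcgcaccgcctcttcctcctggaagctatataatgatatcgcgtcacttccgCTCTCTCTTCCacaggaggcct
The second group sets RPS21, the gene with the most H3K4me3 per kb, beside RPL34, one of those with the least, and beside RPL7L1, a paralog without a run.
RPS21, chr20:60962079-60962178, plus strand: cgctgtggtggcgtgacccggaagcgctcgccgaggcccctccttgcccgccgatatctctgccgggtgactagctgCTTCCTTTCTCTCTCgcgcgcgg
RPL34, chr4:109541652-109541751, plus strand: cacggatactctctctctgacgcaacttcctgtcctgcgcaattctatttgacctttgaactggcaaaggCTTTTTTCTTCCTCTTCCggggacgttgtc
RPL7L1, chr6:42847274-42847373, plus strand: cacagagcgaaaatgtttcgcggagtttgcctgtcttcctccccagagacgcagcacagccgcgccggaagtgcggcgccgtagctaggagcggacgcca

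RefSeq windows from 250 bases before the start to 50 bases from the start on were found for 63 of the 80 genes. A run of at least 5 pyrimidines on the coding strand lay at or within 5 bases of the start in 53 of the 63 (84.1%), against 35.4% of 15318 protein-coding promoters, and a run of 8 or more in 73.0% against 11.4%. The first base was C in 71.4% of the genes and in 11.3% of all promoters. CTTTC within 10 bases of the start on the coding strand was found in 36.5% against 3.13%. The paralogs RPL7L1, RPL26L1 and RPS27L began with G and had no run.

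Other motifs were searched on both strands of the windows, except TATAA and TATAAA, which were searched on the coding strand. CCGGAAG, the core bound by ETS family factors, occurred in 34.9% of the ribosomal protein windows and 14.4% of all windows, and AAGATGG in 14.3% and 6.42%. GGGCGG was found in 52.4% against 59.3% and CACGTG in 6.35% against 8.90%. TATAA within 50 bases before the start was found in 12.7% against 6.10%, and the longer TATAAA, which contains it, in 6.35% against 3.90%. These are counts of letters in a window, with no test.

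H3K4me3 peaks lay within 2 kb of the annotated start of 74 of the 80 genes, and H3K27ac peaks of 75. The start itself was covered in 73 and 72 of them. The peaks were longer than those of other promoters, with a median of 3463 bp for H3K4me3 (all promoter peaks, 2285 bp) and 3616 bp for H3K27ac (2386 bp). They extended mainly into the gene, with median edges at −969 and 2387 bp from the RefSeq start for H3K4me3 and at −1350 and 2388 bp for H3K27ac. Lengths ran from 1644 bp (RPS27) to 7899 bp (RPL8) and from 201 bp (RPL22, a peak away from its RefSeq start) to 10923 bp (RPL27). Another protein-coding gene started inside the peak of 25 genes for H3K4me3 and of 24 for H3K27ac, and the reads of such a peak cannot be divided between the genes. RPS2 and RPL3L shared the H3K4me3 peak chr16:2009061-2016570, which lay 1454 bp from the start of RPL3L, a paralog known from muscle.

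**Figure D1:**
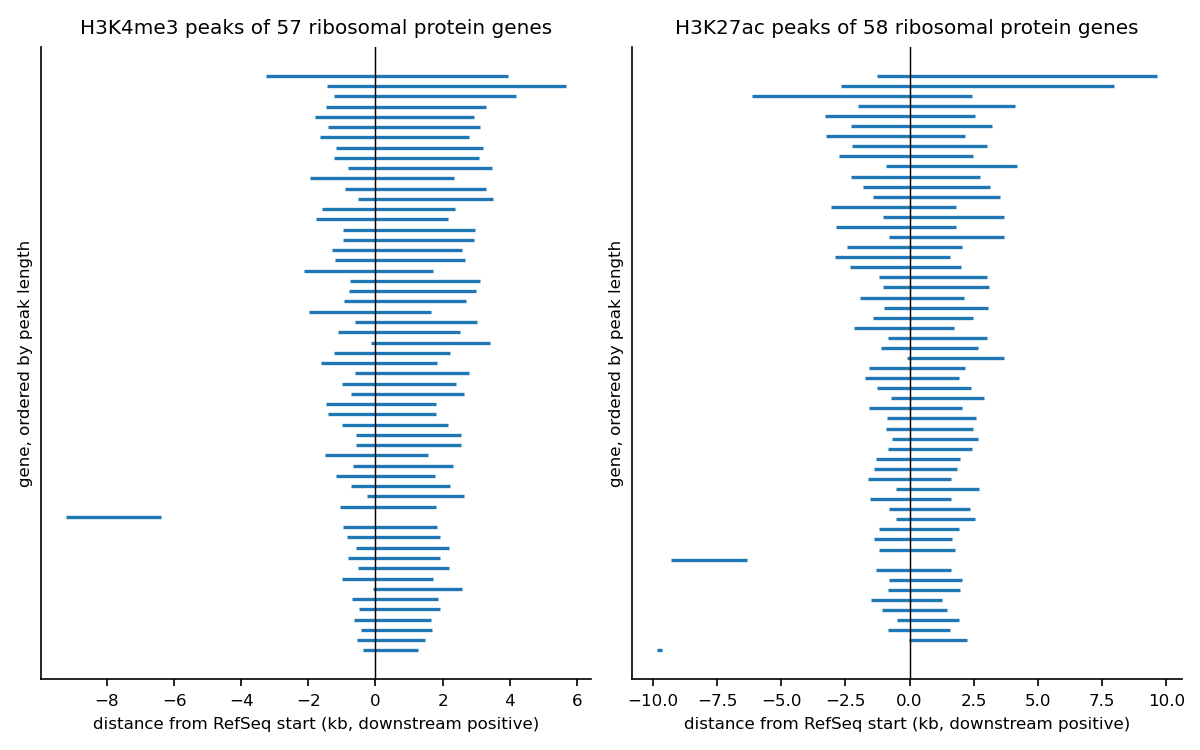
Each line is the extent of the H3K4me3 (left, 57 genes) or H3K27ac (right, 58 genes) peak of one ribosomal protein gene, in kb from its RefSeq start (0, positive downstream). In each panel 56 peaks cover the start, and most reach further downstream than upstream.

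Among the genes without a counted peak were RPL10L, RPL36, RPL39L and RPL4 with either mark, and RPL22 with H3K4me3. RPL10L and RPL39L are paralogs known from the testis. RPL39L nevertheless had an H3K4me3 peak at another annotated transcript start, outside the window (chr3:186856372-186857678). It held 158 and 211 (Par), 166 and 162 (LM2), and 241 and 232 (BrM2) normalized counts, and H3K27ac had a peak there too. For RPL4, RPL36, RPL22 and RPL6 the gene record starts 7396 to 19677 bp upstream of the RefSeq start, and H3K4me3 peaks were present at the latter. That of RPL4 (chr15:66794874-66798957) held 527 and 542 (Par), 355 and 447 (LM2), and 440 and 530 (BrM2) normalized counts. That of RPL36 (chr19:5689799-5692687) held 511 and 636 (Par), 459 and 563 (LM2), and 370 and 460 (BrM2). Both genes thus carried the mark in all 6 libraries, outside the window of the rule. The peak counted for RPL6 lay at the start of its gene record, where PTPN11 also starts, and its H3K4me3 peak at the RefSeq start held 307 and 301 (Par), 273 and 329 (LM2), and 438 and 472 (BrM2).

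Levels are given per kb of peak, so that genes can be compared. H3K4me3 per kb at ribosomal protein promoters was that of an ordinary promoter peak. The median was 145 normalized counts per kb, beside 144 over 11155 promoter peaks, and stood at their 50.7th percentile. By library, the median peak stood at the 49.0th and 51.8th percentile in Par and at the 46.7th and 53.7th in LM2. In BrM2 it stood at the 54.2nd and 62.3rd. Promoters without a peak are not in this comparison. The ribosomal protein peaks were also longer (median 3463 bp against 2285 bp), so equal levels per kb do not mean equal counts per whole peak. RPS21, a small-subunit gene, had the highest level (361 per kb, 97.8th percentile), followed by the peak at the RPL6 gene record (317) and by RPL7L1 (289). RPL17 (57.9 per kb, 13.9th percentile), RPL34 (65.3) and RPL24 (85.4), all of the large subunit, were lowest. The stalk genes RPLP0, RPLP1 and RPLP2 had 165, 188 and 279 per kb, the median large-subunit gene 140 and the median small-subunit gene 157.

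H3K27ac stood higher among promoters, at a median of 40.5 normalized counts per kb and at the 66.2nd percentile of 11562 promoter peaks, and its rank differed by line. The median peak stood at the 56.7th and 58.3rd percentile in the Par libraries, at the 64.7th and 62.6th in LM2 and at the 75.6th and 74.8th in BrM2. RPL7L1 (89.96 per kb), the peak at the RPL6 gene record (80.1) and RPS19 (77.7), a small-subunit gene mutated in Diamond-Blackfan anaemia, were highest. The peak at the RPL22 gene record (20.01 per kb, 201 bp long), RPL11 (20.4) and RPL3L (21.7) were lowest. At the RefSeq start of RPL22, outside the window, the H3K27ac peak chr1:6258284-6260592 had 40.1 per kb, so RPL22 itself was not low. Over the 74 genes with both marks, the levels per kb of the 2 marks had a Pearson correlation of 0.60 on the log2 scale and a Spearman correlation of 0.55, as a description over genes that share libraries and peak lengths.

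**Figure D2:**
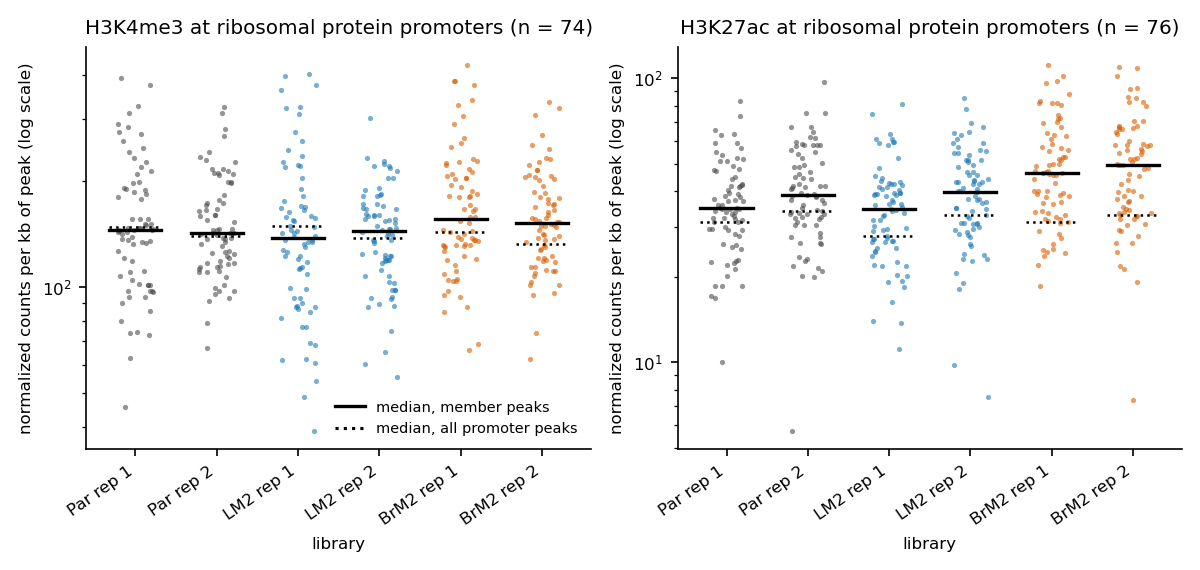
Points are normalized counts per kb (log axis) of ribosomal protein promoter peaks in each library, 74 for H3K4me3 (left) and 76 for H3K27ac (right), with their medians as solid bars and those of all promoter peaks as dotted bars. The solid bars for H3K27ac lie at 46.2 and 49.4 in BrM2, above Par (34.8 and 38.7) and LM2 (34.5 and 39.9).

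The first comparison asked whether the lung-selected line differed from Par. No ribosomal protein promoter passed the test in LM2. DESeq2 called 0 of 74 H3K4me3 peaks at an adjusted p under 0.05 (0 also at an unadjusted p under 0.05, and 0 by edgeR), beside 2.51% of all H3K4me3 peaks tested (1.97% higher and 0.538% lower). For H3K27ac it called 0 of the 74 peaks that could be tested out of 76 (0 at an unadjusted p under 0.05, and 0 by edgeR), beside 3.63% (2.72% higher and 0.907% lower). The median log2 fold change was −0.10 for H3K4me3 (all promoter peaks, −0.0044) and −0.02 for H3K27ac (−0.13). The sign of the H3K27ac median depended on the scaling of the libraries, with 0.08 under loess offsets and 0.04 under total counts. Both LM2 libraries lay above both Par libraries at 5 H3K4me3 peaks and below them at 25, beside 18% and 16% of all peaks, and at 6 and 14 H3K27ac peaks, beside 21.7% and 21.6%.

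The sample titles only number the replicates. The replicate number was treated as pairing the samples because same-numbered replicates deviated together in these same counts. With the replicate number as a term 12 H3K4me3 peaks passed in LM2 against Par, 4 higher and 8 lower, beside 8.9% and 5.49% of all peaks. RPL7L1 was among the lower ones, with normalized counts of 900 and 862 (Par), 650 and 564 (LM2), and 910 and 889 (BrM2). So was RPL24, a large-subunit gene, with 445 and 433 (Par), 294 and 310 (LM2), and 492 and 455 (BrM2). At both genes the 2 LM2 libraries lay below the other 4. Their log2 fold changes with the term were −0.55 (adjusted p = 5.38e-05) and −0.53 (adjusted p = 0.00596), and without it the adjusted p was 0.681 and 0.739 (DESeq2). H3K27ac had 0 calls with the replicate term as well, beside 5.44% of all peaks (3.6% higher and 1.84% lower).

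The second comparison set the brain-selected line against the same Par libraries. H3K27ac was higher in BrM2 at 3 of 76 ribosomal protein promoter peaks, among them those of RPL31 and RPLP0, and lower at 0 (DESeq2, adjusted p under 0.05), beside 3.62% of all peaks called higher and 1.67% called lower. The share called was thus near the background. The median log2 fold change was 0.34, against −0.06 for all promoter peaks, and 82.9% of the peaks were positive, against 44.4%. Both BrM2 libraries lay above both Par libraries at 41 of 76 peaks and below them at 5, beside 25% and 25.4% of all peaks. Summed over the 76 peaks, normalized counts came to 11263 and 12675 (Par), 10950 and 12348 (LM2), and 15110 and 15654 (BrM2). In bulk libraries, more of a mark in each cell cannot be told apart from more cells, or more gene copies, that carry it.

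The median of 0.34 was between 0.32 and 0.36 under the other scalings of the libraries. With the replicate term 6 H3K27ac peaks passed in BrM2 against Par, among them those of RPL31, RPLP0, RPL10A, RPL13 and RPL26, and all were higher in BrM2, beside 5.14% of all peaks. RPL13 and RPL26 were named after their values were seen.

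For H3K4me3, BrM2 against Par gave 0 calls in 74 peaks (DESeq2, 1 at an unadjusted p under 0.05, and 0 by edgeR), beside 3.61% of all peaks (2.82% higher and 0.791% lower). The median log2 fold change was 0.11, against −0.08 for all promoter peaks, and the BrM2 libraries lay above both Par libraries at 27 peaks and below at 9, beside 21.6% and 17.3%. With the replicate term 19 passed, 15 higher and 4 lower, beside 8.55% and 9.11%. RPL31 had the highest difference, 0.80 ± 0.31 (SE, adjusted p = 0.186, and 1.41e-06 with the replicate term, DESeq2). RPL7A, a large-subunit gene named after its values were seen, had the lowest, −0.57 ± 0.31 (adjusted p = 0.550, and 7.41e-06 with the term), with 1073 and 865 (Par), 1037 and 860 (LM2), and 704 and 603 (BrM2). All H3K4me3 peaks of a chromosome had a median of 0.17 on chromosome 2 (RPL31) and −0.35 on chromosome 9 (RPL7A) in this contrast. The part of gene copy number in these differences was not tested.

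**Figure D3:**
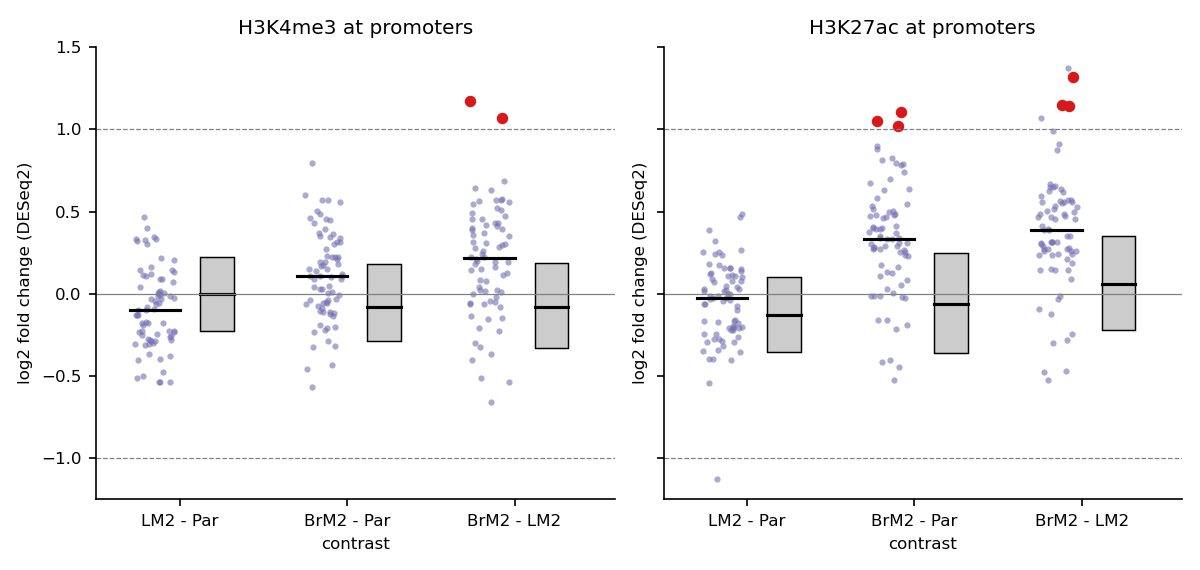
Points are log2 fold changes of ribosomal protein promoter peaks in each contrast, red where the adjusted p is under 0.05 (DESeq2), with their median as a bar, beside grey boxes for all promoter peaks. The H3K27ac medians are 0.34 and 0.39 in the BrM2 contrasts and −0.02 in LM2 against Par.

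The third comparison set the selected lines against each other and shares its libraries with the other two. H3K27ac was higher in BrM2 than in LM2 at 3 of 76 peaks, RPL31 and RPL10A among them (beside 1.71% of all peaks called higher), and lower at 0 (1.22%). The median log2 fold change was 0.39, against 0.06 for all promoter peaks, and both BrM2 libraries exceeded both LM2 libraries at 47 peaks and lay below at 4, beside 22.6% and 24.5%. H3K4me3 was higher at RPL31 and RPL22L1 (2 of 74, beside 2.05%), and lower at 0 (1.13%, and 3.18% in either direction). Its median was 0.22, against −0.08, and the BrM2 libraries lay above at 38 peaks and below at 7, beside 20% and 18.2%. With the replicate term 29 H3K4me3 peaks passed, 25 higher and 4 lower, beside 8.99% and 13%, and 6 H3K27ac peaks, all higher, beside 3.65%.

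edgeR with the replicate term called more peaks of both marks, among the ribosomal protein genes and overall. For H3K4me3 it called 7 higher and 19 lower in LM2 against Par, beside 14.5% and 11.6% of all peaks (26.2% in either direction), 19 higher and 7 lower in BrM2 against Par, beside 15.1% and 18.2% (33.3%), and 31 higher and 7 lower in BrM2 against LM2, beside 15.9% and 22.7% (38.6%). For H3K27ac it called 0 in LM2 against Par, beside 7.72% higher and 5.48% lower (13.2%), and 18 higher and 0 lower in each BrM2 contrast, beside 8.67% and 7.23% (15.9%) against Par and 6.5% and 6.04% (12.5%) against LM2.

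RPL31, a large-subunit protein near the exit of the peptide tunnel, passed for both marks. Its H3K4me3 peak, chr2:101618145-101621541, covered the start and ran into the gene, with 345 and 388 (Par), 261 and 303 (LM2), and 614 and 660 (BrM2). Both BrM2 libraries stood above the others and both LM2 libraries below. BrM2 exceeded LM2 by 1.17 ± 0.31 on the log2 scale (SE, n = 2 per line, adjusted p = 0.00921, DESeq2).

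The H3K27ac peak of RPL31, chr2:101617760-101621801, held 90.6 and 131 (Par), 89.2 and 118 (LM2), and 223 and 235 (BrM2). Par and LM2 overlapped and BrM2 lay above both, by 1.05 ± 0.33 against Par (adjusted p = 0.0310) and by 1.15 ± 0.33 against LM2 (adjusted p = 0.0211, DESeq2). All H3K27ac peaks of chromosome 2 had medians of 0.22 and 0.21 in these contrasts. After the chromosome medians had been subtracted, the differences of RPL31 were 0.83 and 0.94 and no longer passed.

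RPLP0 is the scaffold of the stalk that recruits translation factors. Its H3K27ac peak, chr12:120637306-120640234, held 114 and 181 (Par), 174 and 143 (LM2), and 282 and 318 (BrM2). Par and LM2 overlapped and BrM2 lay above them, by 1.02 ± 0.32 against Par (adjusted p = 0.0303, DESeq2). Against LM2 the difference of 0.91 ± 0.32 passed with the replicate term only (adjusted p = 0.0909 without and 0.0189 with it). Without Par replicate 1, the lower Par library, the difference from Par was 0.73 and no longer passed. For H3K4me3, BrM2 exceeded Par by 0.56 with the replicate term (adjusted p = 3.98e-05, and 0.560 without it).

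RPL10A forms the L1 stalk, on the other side of the large subunit. Its H3K27ac peak, chr6:35435365-35439870, held 161 and 260 (Par), 151 and 206 (LM2), and 397 and 387 (BrM2). BrM2 lay above the other lines, and the Par replicates differed from each other more than those of LM2 and BrM2. The difference was 1.14 ± 0.32 against LM2 (adjusted p = 0.0164, DESeq2) and 0.90 ± 0.32 against Par (adjusted p = 0.0709, and 0.00288 with the replicate term). Its H3K4me3 was higher in BrM2 than in LM2 by 0.62 with the term (adjusted p = 1.19e-06, and 0.381 without it).

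RPL22L1 is a paralog of RPL22. Its H3K4me3 peak, chr3:170584685-170588890, held 358 and 410 (Par), 227 and 315 (LM2), and 558 and 586 (BrM2), and the 3 lines did not overlap. With the replicate term its H3K4me3 differences from Par were −0.49 in LM2 (adjusted p = 0.0210) and 0.58 in BrM2 (adjusted p = 0.00240, DESeq2). Without the term the adjusted p was 0.886 and 0.596 (DESeq2). BrM2 exceeded LM2 by 1.07 ± 0.33 (adjusted p = 0.0398, DESeq2), and edgeR without the replicate term did not call it (adjusted p = 0.0716). Its H3K27ac difference was 0.59 ± 0.30 (adjusted p = 0.379). Each of these calls made without the replicate term was lost when either BrM2 library was left out, which leaves 1 BrM2 library.

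**Figure D4:**
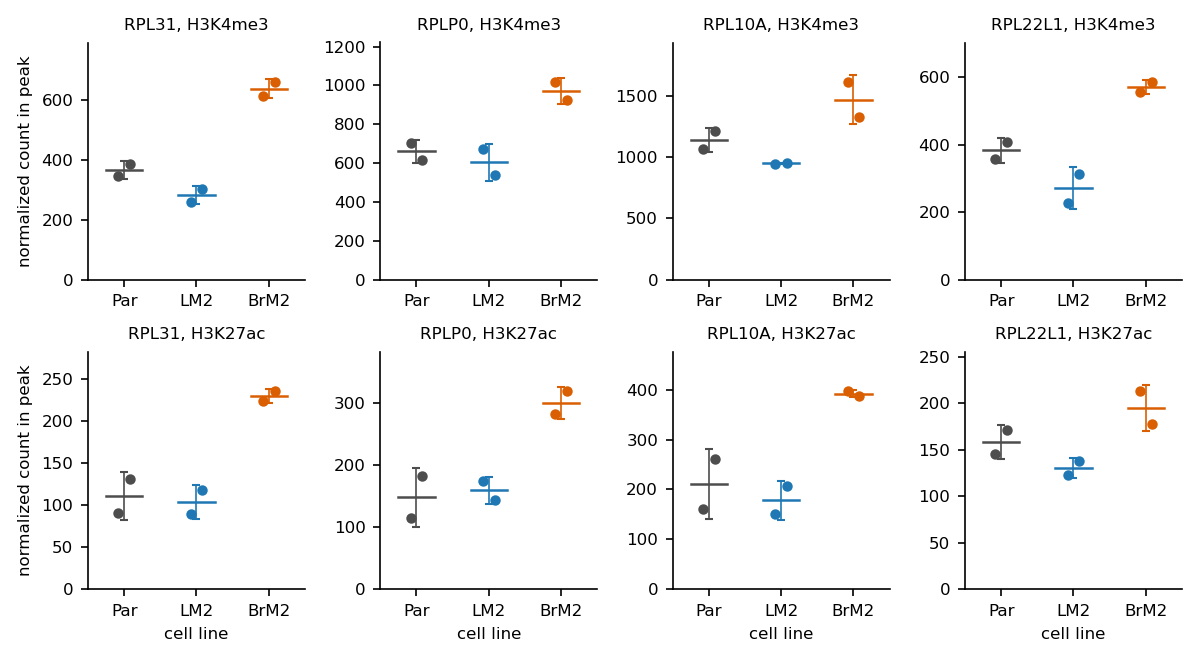
Normalized counts of both replicates (points), with mean and SD (bars), for RPL31, RPLP0, RPL10A and RPL22L1, H3K4me3 above and H3K27ac below, on axes that start at 0. The BrM2 points lie above the Par and LM2 points in every panel.

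A difference that misses a threshold does not show that a promoter is stable, so the null hypothesis of a change of 2-fold or more was tested itself (DESeq2). H3K4me3 was within 2-fold at 55 of 74 peaks in LM2 against Par, at 50 in BrM2 against Par and at 37 in BrM2 against LM2, beside 34.9%, 31.4% and 31.9% of all peaks tested. H3K27ac was within 2-fold at 57 of 76 in LM2 against Par, beside 27.4%, and at 22 and 21 in the BrM2 contrasts, beside 20% and 24.8%. Only 11155 of 22572 H3K4me3 peaks and 11562 of 62195 H3K27ac peaks lay at gene starts. The test passes more easily at peaks with more reads, so the shares over all peaks are not a like background. They do not show that these promoters were more stable than other promoters. With the replicate term the counts for H3K4me3 were 74, 73 and 72 in the same order, beside 70.6%, 72.7% and 72.3% of all peaks, and those for H3K27ac were 69, 43 and 40, beside 40.4%, 33% and 34.6%. Without the term these counts rested on both replicates of each line: with any library of the compared lines left out, 0 peaks of either mark were shown to be within 2-fold. Without 1 library of the line not compared, which enters only the estimate of the spread, the H3K27ac counts were 35 and 42 in LM2 against Par, 0 and 6 in BrM2 against Par and 8 and 13 in BrM2 against LM2. No peak was within 1.5-fold in any contrast when the term was left out. The median standard error was 0.32 to 0.33 in each contrast.

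Of the reference genes, RPL13A was within 2-fold in every contrast of both marks except H3K27ac in BrM2 against Par (adjusted p = 0.110, DESeq2). Its H3K4me3 counts were 808 and 787 (Par), 666 and 692 (LM2), and 741 and 814 (BrM2). RPS18 had 693 and 801 (Par), 614 and 663 (LM2), and 973 and 938 (BrM2), and its difference between BrM2 and LM2 of 0.58 had a 95% interval of −0.01 to 1.16 (adjusted p = 0.470). With the replicate term RPS18 passed, by 0.58 against LM2 (adjusted p = 1.64e-05) and by 0.35 against Par (adjusted p = 0.0215, DESeq2). RPL13A passed for H3K4me3 by edgeR with that term, in LM2 against Par (−0.24, adjusted p = 0.0234), and not by DESeq2. RPLP0, also used as a reference gene, was among the calls above.

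RPL5 and RPL11 join the smallest ribosomal RNA of the large subunit in a particle that binds MDM2. RPL5 H3K4me3 counts were 507 and 564 (Par), 384 and 485 (LM2), and 422 and 457 (BrM2), within 2-fold in all 3 contrasts (adjusted p = 0.0378 to 0.0455, DESeq2). By edgeR with the replicate term RPL5 was lower than in Par in LM2 (−0.30, adjusted p = 0.0240) and in BrM2 (−0.32, adjusted p = 0.0145). DESeq2 with that term called neither difference. RPL11 H3K27ac counts were 61.0 and 76.1 (Par), 69.6 and 69.0 (LM2), and 87.7 and 79.0 (BrM2), within 2-fold in LM2 against Par (adjusted p = 0.0289) and not shown to be so in BrM2 against Par (0.0769).

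RPS6 is the small-subunit protein phosphorylated by S6 kinase. Its H3K27ac counts were 163 and 150 (Par), 113 and 143 (LM2), and 185 and 120 (BrM2), so that BrM2 and Par overlapped, and they were within 2-fold of each other (adjusted p = 0.0301, DESeq2). RPSA, a small-subunit protein also known as the laminin receptor precursor, had H3K4me3 counts of 434 and 315 (Par), 488 and 349 (LM2), and 504 and 304 (BrM2). Its replicates differed more than the lines did, and it was within 2-fold in all 3 H3K4me3 contrasts (adjusted p = 0.0379 to 0.0429).

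RPLP1 and RPLP2 are the partners of RPLP0 in the stalk. RPLP1 H3K4me3 counts were 595 and 432 (Par), 613 and 424 (LM2), and 624 and 370 (BrM2), and those of RPLP2 were 1080 and 751 (Par), 1253 and 772 (LM2), and 1181 and 768 (BrM2). Both genes were within 2-fold for H3K4me3 in all 3 contrasts. Their H3K27ac differences between BrM2 and Par were 0.11 ± 0.40 and 0.23 ± 0.31 (adjusted p = 0.955 and 0.834, DESeq2).

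Among the paralogs, RPS27L, known as a p53 target, had the lowest H3K27ac difference in BrM2 against Par, −0.52 ± 0.32 (adjusted p = 0.469, DESeq2), with 193 and 159 (Par), 147 and 207 (LM2), and 115 and 131 (BrM2). The BrM2 libraries lay below the other 4. The H3K27ac difference was 0.55 ± 0.26 at RPL26L1, 0.37 ± 0.27 at RPL7L1 and −0.19 ± 0.40 at RPL3L, and none of these passed by DESeq2. That of RPL26L1 passed by edgeR with the replicate term (0.53, adjusted p = 0.0148).

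**Figure D5:**
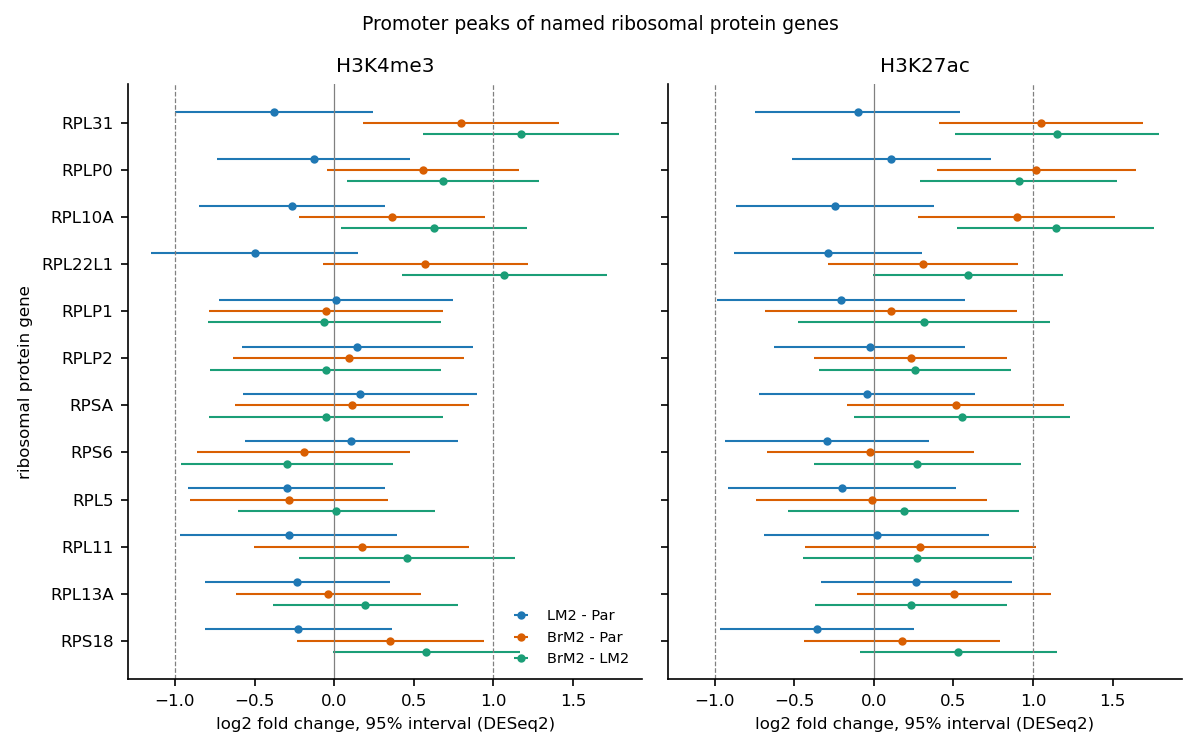
Log2 fold changes with 95% intervals for 12 ribosomal protein genes in the 3 contrasts (DESeq2, without the replicate term), H3K4me3 left and H3K27ac right, with dashed lines at a 2-fold change. Intervals of RPL31, RPLP0 and RPL10A exclude 0 for H3K27ac in both BrM2 contrasts, and those of RPLP1, RPLP2, RPL5 and RPS6 include it throughout.

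On the log2 scale of normalized counts plus 0.5, the median absolute H3K4me3 difference over the 74 peaks was 0.19 between the Par replicates, 0.33 in LM2 and 0.21 in BrM2, and 0.21, 0.20 and 0.30 between the line means of LM2 and Par, BrM2 and Par, and BrM2 and LM2. For H3K27ac it was 0.32, 0.29 and 0.23 between replicates and 0.17, 0.38 and 0.43 between line means, so that the differences of BrM2 from Par and LM2 exceeded those between replicates. Over all promoter peaks the values were 0.41, 0.47 and 0.40 and 0.23, 0.25 and 0.27 for H3K4me3. For H3K27ac they were 0.37, 0.35 and 0.34 and 0.25, 0.31 and 0.29. A line mean averages 2 libraries and a replicate is 1 library, so the 2 kinds of difference are not like measures. Much of the replicate difference was shared by the lines for H3K4me3, and less of it for H3K27ac. Over the ribosomal protein peaks, which come from the same libraries, the deviations of same-numbered replicates from their line means had correlations of 0.88, 0.84 and 0.88 for H3K4me3 and 0.33, 0.71 and 0.42 for H3K27ac (Par and LM2, Par and BrM2, LM2 and BrM2). The fit with the replicate term takes such a shared difference out. The highest of the 6 libraries was less than 2 times the lowest at 68 of 74 genes for H3K4me3 and at 56 of 75 for H3K27ac.

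The differences were not alike on all chromosomes. On chromosome 2, RPL31, RPL37A, RPS7 and RPS27A had a median H3K27ac difference of 0.82 in BrM2 against Par and 0.85 against LM2. RPL37A, of the large subunit, had 62.7 and 80.1 (Par), 74.1 and 87.7 (LM2), and 117 and 135 (BrM2) (BrM2 against Par 0.81 ± 0.35, adjusted p = 0.190, DESeq2). On chromosome 9, RPS6, RPL7A, RPL12 and RPL35 had medians of −0.12 and −0.07, where all H3K27ac peaks of the chromosome had −0.34 and −0.45. The 11 genes on chromosome 19 were positive in both BrM2 contrasts, with medians of 0.41 and 0.31. The part of gene copy number in these values was not tested. The chromosomes and RPL37A, RPS7, RPS27A, RPL12 and RPL35 were chosen after their values were seen.

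Properties that the rule had not used were set beside the differences. For H3K27ac in BrM2 against Par, the median was 0.31 over the 24 genes whose peak also held another start and 0.35 over the other 51. It was 0.39 over the 43 genes with 8 or more pyrimidines at the start and 0.34 over the 15 with fewer or none. For the same groups the H3K27ac medians were 0.47 and 0.31 in BrM2 against LM2, and −0.07 and 0.02 in LM2 against Par, where 15 of 43 and 11 of 15 were positive. In BrM2 against Par the median was 0.34 over large-subunit peaks, 0.35 over small-subunit peaks, 0.23 over the stalk genes and 0.31 over the paralogs. These splits are descriptions.

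Other genes of translation were described by lists. In BrM2 against Par, the median H3K27ac difference was 0.28 over 8 peaks of cytosolic ribosomal proteins outside the rule, of which 1 was called. The median was 0.17 over 13 peaks of translation factors and other TOP genes, of which 1 was called. This was EIF3F, a subunit of an initiation factor, with 62.7 and 74.1 (Par), 160 and 154 (LM2), and 195 and 185 (BrM2) (difference 1.48 ± 0.32, adjusted p = 3.09e-04), and it also passed in LM2 against Par (1.1997 ± 0.31, adjusted p = 0.00722). The median was 0.10 over 40 ribosome biogenesis peaks and 0.12 over 76 peaks of mitochondrial ribosomal proteins, with 0 called in both (DESeq2, 2 and 4 at an unadjusted p under 0.05, 0 and 1 with the replicate term, and 2 and 4 by edgeR with that term). For H3K4me3 these 4 lists had 0 calls in the 3 contrasts (DESeq2, at most 5 peaks of a list at an unadjusted p under 0.05). With the replicate term H3K4me3 peaks of all 4 lists passed, beside 14.4%, 17.7% and 22% of all peaks in LM2 against Par, BrM2 against Par and BrM2 against LM2. Of the 39 biogenesis peaks, 1, 2 and 10 were higher and 7, 0 and 1 lower in that order. Of the 74 mitochondrial peaks, 3, 2 and 10 were higher and 11, 6 and 6 lower. Of the 8 peaks of cytosolic ribosomal proteins outside the rule, 0, 2 and 2 were higher and 1, 1 and 0 lower, and of the 13 peaks of translation factors and other TOP genes, 1, 1 and 3 were higher and 2, 1 and 2 lower.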

How the data were processed

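ChIP-seq of H3K4me3 and H3K27ac was analysed in 12 libraries, 2 per line and mark, and 3 input samples were not analysed here. Values in the deposited tables are whole read counts for each peak, not normalized. Per the labels, whose processing notes give the versions, and the study's methods, the authors trimmed reads with Trimmomatic 0.32, aligned them to hg19 with Bowtie2 2.3.4.3, marked duplicates with Picard 2.18.21 and filtered the alignments, called broad peaks with MACS2 2.1.2 on the merged reads of all lines, and counted reads with featureCounts 1.6.0. A peak set merged over lines gives each line the same regions, and counts from short reads of PCR-amplified libraries carry no molecular identifiers.

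Peaks were assigned to a gene when they lay within 2 kb of its start in GENCODE release 44 mapped to hg19. The genes and lists were chosen with earlier results of these data known. Counts were fitted over the 6 libraries of a mark with DESeq2 1.42.0 in R 4.3.3 (median-of-ratios size factors, Wald test, line as the only term), with a threshold of 0.05 after Benjamini-Hochberg adjustment. The adjustment ran over the peaks of the mark left by the default filter on mean counts, a set that varied with contrast and test. In LM2 against Par it held 48931 H3K27ac peaks in the test for a change and 30844 in the test for within 2-fold. A peak was within 2-fold when the test against a change of 2-fold or more passed the same threshold. Of the 76 H3K27ac peaks, 2 with few reads had no adjusted p. The fits were tested on simulated data. Some genes that the counts include are not reported here. Named genes were up to 5 called peaks per contrast, the 3 highest and 3 lowest levels per kb, genes without a peak, the paralogs, and RPLP0, RPLP1, RPLP2, RPSA, RPS6, RPL5, RPL11, RPL13A and RPS18.

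Same-numbered replicates deviated together from their line means over all peaks (r = 0.513, 0.489 and 0.548 for H3K4me3 and 0.202, 0.237 and 0.212 for H3K27ac, over the 3 pairs of lines), so the replicate number was treated as pairing the samples. Counts of calls from the fit with it as a term are given for each contrast. Per-gene values from that fit are given for only some of the named genes whose calls changed. Alternatives were other scalings (TMM, total counts, loess with a span of 0.3), edgeR 4.0.16, the replicate term, a mean raw count of at least 10, only the lines compared, each library left out, other starts and windows, paralogs left out and chromosome medians subtracted. The RefSeq starts were added as an alternative after seeing the data. RefSeq windows were matched for 63 genes, of which 61 had 1 exact place in GRCh37.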

Additional observations from a re-analysis of the deposited data

Results flagged for a closer look

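These peaks differed between the selected lines, BrM2 and LM2, by a test of that difference (DESeq2, 2 libraries per line). H3K4me3 was higher in BrM2 by 1.17 on the log2 scale at RPL31 and by 1.07 at RPL22L1. H3K27ac was higher by 1.15 at RPL31 and by 1.14 at RPL10A. In each case both BrM2 libraries lay above both LM2 libraries, which adds little to a call from 2 libraries per line. edgeR without the replicate term did not call RPL22L1 (adjusted p = 0.0716). The H3K27ac difference at RPL31 no longer passed after the chromosome medians had been subtracted. Each call depended on both BrM2 libraries.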

How the results depend on the processing

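With the replicate block in DESeq2, changed H3K4me3 peaks numbered 12 (LM2 against Par), 19 (BrM2 against Par) and 29 (BrM2 against LM2), and changed H3K27ac peaks 6 and 6 in the BrM2 contrasts. With the block, 72 H3K4me3 peaks were within 2-fold in BrM2 against LM2, and 43 and 40 H3K27ac peaks in BrM2 against Par and against LM2. edgeR with the replicate block called 26, 26 and 38 H3K4me3 peaks and 18 and 18 H3K27ac peaks in the BrM2 contrasts. With loess offsets 1 H3K4me3 and 5 H3K27ac peaks changed in BrM2 against Par. When only the lines compared were fitted, 1 H3K4me3 peak changed in BrM2 against LM2, and in BrM2 against Par 1 H3K27ac peak changed and 7 were within 2-fold. edgeR without the block called 1 H3K4me3 peak in BrM2 against LM2, as did the fit with the paralogs left out, which removes RPL22L1. After the chromosome medians were subtracted, 1 H3K27ac peak changed in BrM2 against Par. With a band of 1.5-fold, 0 peaks were stable in all 6 contrasts. Shares of all peaks called are not given for loess offsets, only the lines compared, edgeR without the block or subtracted chromosome medians. Counts under those fits therefore describe the ribosomal protein peaks only. The cause of the changes between fits was not tested.

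Leaving out 1 library at a time gave 0 changed H3K4me3 peaks in LM2 and BrM2 against Par and 0 to 1 in BrM2 against LM2, and 0, 0 to 3 and 0 to 3 changed H3K27ac peaks in the same order. Peaks within 2-fold then numbered 0 to 56, 0 to 56 and 0 to 31 for H3K4me3 and 0 to 42, 0 to 6 and 0 to 13 for H3K27ac. Where a line is left with 1 library, that library is assumed to vary like the others. No called value changed sign. The median H3K27ac difference in LM2 against Par, reported as −0.02 with 0 calls, was 0.08 with loess offsets and 0.04 with total counts. Of the alternative values for counts of peaks 151 stayed within 1.5 times of the reported count and 71 did not. Without the replicate term the named calls between lines were of 2-fold or more, and with it most H3K4me3 calls were smaller.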
